A study of Mus musculus with 40 samples.

Results

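Notch receptors, their ligands and their target genes were followed in mouse neural stem cells whose Id genes can be deleted. The set was 10 genes: the receptors Notch1, Notch2 and Notch3, the ligands Dll1, Dll3, Jag1 and Jag2, and the target genes Hes1, Hes5 and Hey1. They were chosen by gene symbol in the platform annotation, which gave 12 of the 45260 usable probes of the Illumina MouseWG-6 array (2 for Notch2, 2 for Hes5 and 1 for each of the others), and every one of them was read on all 40 arrays. A probe was tested where its detection p-value was under 0.01 on at least 3 arrays. This held for 10 probes of 9 genes. Neither Notch2 probe (ILMN_2678002 and ILMN_2980247) passed: both had a detection p-value under 0.01 on 0 arrays, and a value under 0.05, called above background here, on 3 and 2 of the 40 arrays.

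The cells were primary neural stem cells from the E13.5 telencephalon, of 129/Svj;C57Bl/6 hybrid strain, with the genotype Id-cTKO-Rosa-Cre-ER. Both arms therefore carried floxed Id1 and Id2 alleles (Id1 L/L; Id2 L/L), no functional Id3 (Id3-/-) and a Cre-ER recombinase expressed from the ubiquitous ROSA26 locus, and both grew on laminin in the presence of 20 ng/ml FGF-2 and 20 ng/ml EGF. One arm was exposed to 4-hydroxytamoxifen (4-OHT) at 250 nM in ethanol, the drug that lets Cre-ER act, and the other to the vehicle, and RNA was taken after 6, 12, 18, 24, 48, 96 or 144 h. There were 14 groups of 3 arrays, named A, B and C by replicate letter, but only 2 arrays (A and C) in either group at 144 h. No group carried the recombinase without floxed alleles, so an action of 4-OHT or of active Cre that does not depend on the Id genes cannot be told apart from their loss. The labels do not say whether the replicates were separate cultures or animals, so a p-value reflects the spread among these samples, which may be technical.

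Notch signalling passes between touching cells. A Delta or Jagged ligand on one cell binds a Notch receptor on its neighbour, the receptor is cleaved, and its intracellular domain enters the nucleus, where with the DNA-binding protein Rbpj it switches on repressors of the Hes and Hey families. In neural stem cells these repressors hold down proneural genes, while cells that begin to differentiate raise their Delta ligands and so signal to the cells around them. Id proteins are helix-loop-helix proteins without a DNA-binding region. They bind E proteins and keep them and their partners from DNA.

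Levels are background-corrected, quantile-normalized intensities on the log2 scale, and a difference is 4-OHT minus vehicle on that scale with the standard error (SE) of the limma model. The threshold for a call was an adjusted p under 0.05, by limma's moderated test with Benjamini-Hochberg adjustment over all 21740 tested probes. The floxed genes served to check the labels. Id2 lay lower on all 4-OHT arrays than on all vehicle arrays at every one of the 7 times, and its difference was -2.01 at 18 h (adjusted p = 1.02e-05) and -4.94 at 96 h. Id1 lay lower on all 4-OHT arrays from 18 h, and its difference was -1.87 at 48 h (adjusted p = 3.12e-05) and -4.79 at 96 h. Among 8 markers of neural stem cells, Nes, Sox2, Vim, Fabp7 and Slc1a3 were above background on all 40 arrays, Prom1 on 21, Pax6 on 14 and Msi1 on 1. The arrays detected 12947 to 19186 probes. The lowest count was that of vehicle array C at 6 h, a dim array, and the other 39 detected at least 15884. Precision is limited by how many arrays each group has. Because RNA came from whole cultures, fewer cells that express a gene and less of its RNA per cell cannot be told apart.

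The promoters of the ligands that moved with 4-OHT, Dll1 and Dll3, and of the target gene that moved most with time, Hes5, are shown as the 250 bases before the start of transcription, read 5′ to 3′ on the gene's strand. Capitals mark E-boxes, the letters CANNTG that basic helix-loop-helix dimers bind, and TGGGAA or its reverse complement, the core letters bound by Rbpj. The windows come from the RefSeq annotation of GRCm38.p6, which gave entries for 8 of the 10 genes, with 2 starts for Dll1. Hes1 and Hey1 had no entry.
Dll1, chr17:15375824-15376073, minus strand: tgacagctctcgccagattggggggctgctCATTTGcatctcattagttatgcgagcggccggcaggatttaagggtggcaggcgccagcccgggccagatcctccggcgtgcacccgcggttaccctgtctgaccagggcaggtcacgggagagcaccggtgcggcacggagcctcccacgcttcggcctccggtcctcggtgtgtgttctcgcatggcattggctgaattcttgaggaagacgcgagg
Dll1, chr17:15376933-15377182, minus strand: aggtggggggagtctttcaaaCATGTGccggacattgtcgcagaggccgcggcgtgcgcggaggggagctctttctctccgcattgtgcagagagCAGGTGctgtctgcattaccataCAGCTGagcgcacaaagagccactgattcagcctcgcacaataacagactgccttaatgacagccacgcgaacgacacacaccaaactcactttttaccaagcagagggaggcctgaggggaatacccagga
Dll3, chr7:28301786-28302035, minus strand: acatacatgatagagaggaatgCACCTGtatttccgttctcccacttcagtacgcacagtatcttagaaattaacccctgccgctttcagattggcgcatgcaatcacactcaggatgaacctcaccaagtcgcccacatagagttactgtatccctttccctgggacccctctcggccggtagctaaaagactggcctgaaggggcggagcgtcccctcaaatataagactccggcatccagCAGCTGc
Hes5, chr4:154960673-154960922, plus strand: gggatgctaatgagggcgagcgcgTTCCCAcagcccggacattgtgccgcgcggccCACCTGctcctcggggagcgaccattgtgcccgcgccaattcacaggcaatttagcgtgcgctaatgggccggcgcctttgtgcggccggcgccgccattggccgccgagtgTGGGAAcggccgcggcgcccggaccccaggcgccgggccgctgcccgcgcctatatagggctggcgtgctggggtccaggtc
Both strands were searched. CANNTG reads as the same pattern on either strand, and CAGCTG, counted apart as well, is one of its forms. The first Dll1 window held 1 E-box, the second 3 and the Dll3 window 2, and 1 of those in the second Dll1 window and 1 in the Dll3 window read CAGCTG. The CAGCTG of Dll3 lay 7 to 2 bases before the start, that of Dll1 132 to 127 bases before it. The Hes5 window held 2 matches to TGGGAA, at 226 to 221 and at 82 to 77 bases before the start, and 1 E-box. None of the Dll1 and Dll3 windows held TGGGAA. Of all 32851 windows of the same length in that annotation, 66.2% held CANNTG, 13% held CAGCTG and 21.6% held TGGGAA. Of the windows not shown, that of Jag1 held 1 CAGCTG, and those of Notch1, Notch2, Notch3 and Jag2 held none of these letters. A match describes the letters and is no measured binding site.

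Of the 4 ligands, 2 rose after 4-OHT, both of the Delta class. With the arrays taken as unpaired, none of the 10 tested probes of the set was called lower at any time. With the replicate letter as a block (below), Notch3 and Jag1 were called lower at 96 and 144 h, among 11.7% and 16.3% of all tested probes. The counts that follow are without the block. At 6, 12, 18 and 24 h, 0 of the 10 probes were called, when 0%, 0%, 0.0736% and 0.248% of all tested probes were called in either direction (0.0506% higher and 0.023% lower at 18 h, 0.193% and 0.0552% at 24 h). At an unadjusted p under 0.05 these times gave 1, 1, 1 and 2 of the 10, and 6.82%, 5.08%, 2.95% and 3.79% of all tested probes. At 48 h 1 probe was called higher (Dll3), against 0.649% of all tested probes higher, 0.304% lower and 0.952% in either direction. At 96 h Dll1 and Dll3 made 2 calls, against 2.41% higher, 2.1% lower and 4.5% in either direction. The same 2 genes were called at 144 h, against 3.41% higher, 3.2% lower and 6.61% in either direction. The median difference over the 10 probes was 0.34 at 96 h and 0.17 at 144 h, and over all tested probes it was 0.01 at both times. In the F test for a difference at any time, the same 2 probes of the set were called, against 6.05% of all tested probes. In the F test for an effect that differs between times, 0 of the 10 were called, against 1.81%. In that test 3 had an unadjusted p under 0.05 (Notch1, Dll1 and Dll3). The share of all tested probes at this unadjusted threshold was not counted, and 1.81% is not its measure.

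A plainer reading asks whether the arrays of both arms overlapped at all. At 6 h 0 of the 10 probes had all 4-OHT arrays above or all below the vehicle arrays, when 6.87% of all tested probes lay above and 4.24% below. At 12 h it was again 0, against 4.81% and 5.09%. At 18 h Dll1 and Dll3 lay above and 0 below, against 3.36% and 3.86%. At 24 h Dll3, Jag2 and the second Hes5 probe lay above and Notch1 and Jag1 below, against 5.25% and 5.78%. At 48 h Dll1, Dll3 and Jag2 lay above and 0 below, against 7.58% and 7.36%. At 96 h Dll1 and Hey1 lay above and Notch3 below, against 9.78% and 9.29%. At 144 h, with 2 arrays a group, Dll1, Dll3 and both Hes5 probes lay above and Notch3 and Jag1 below, against 17.4% and 17.2%. Dll1 lay apart at 18, 48, 96 and 144 h and Dll3 at 18, 24, 48 and 144 h.

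**Figure D1:**
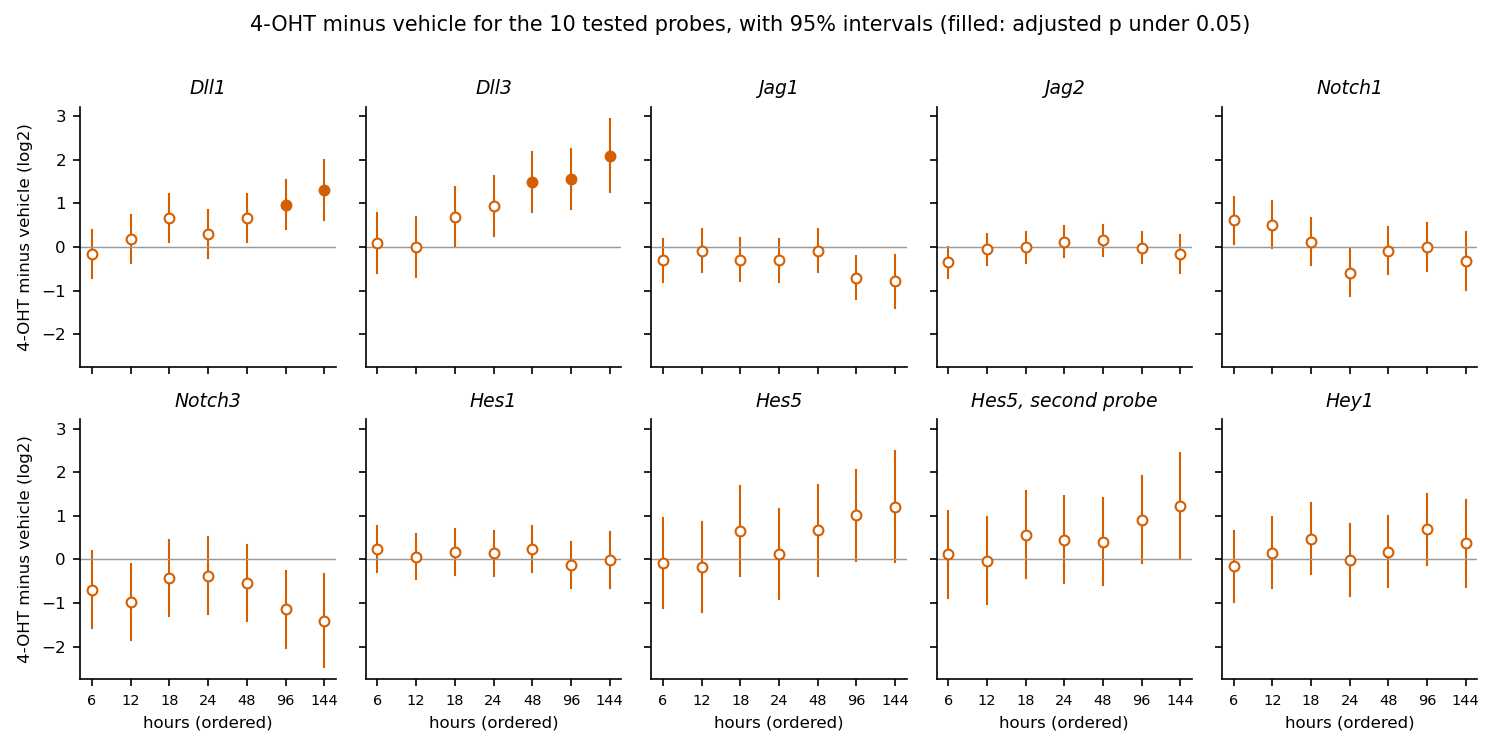
4-OHT minus vehicle (log2) at each of the 7 times for the 10 tested probes, with 95% intervals of the model; filled circles had an adjusted p under 0.05. Dll3 is filled at 48, 96 and 144 h and Dll1 at 96 and 144 h, all above 0, while Notch3 and Jag1 lie below 0 at every time with open circles.

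Dll3, a divergent Delta ligand that in the mouse acts largely inside the cell that makes it and does not activate Notch on a neighbour, was called at 3 of the 7 times (probe ILMN_2643777). At 6 and 12 h it was not above background on any of the 12 arrays, whose levels ran from 4.17 to 4.57. Those arrays form their own series of array numbers, so time and array series cannot be told apart between 12 and 18 h. At 18 h the 4-OHT arrays A, B and C read 5.12, 5.27 and 5.16, and the vehicle arrays read 4.49, 4.26 and 4.75, of which only C was above background. All 4-OHT arrays were thus the higher ones, but the difference of 0.68 ± 0.34 (SE, n = 3 each) was not called (adjusted p = 0.9999).

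At 24 h the 4-OHT arrays read 6.12, 5.30 and 5.29 for Dll3 and the vehicle arrays 4.87, 4.53 and 4.48. Again the groups did not overlap, as held for 5.25% of all tested probes in this direction, and the difference of 0.95 ± 0.34 had an adjusted p of 0.628. With the replicate letter as a block, which sets each 4-OHT array against the vehicle array of its letter, it was called (adjusted p = 0.0205), among 1.5% of all tested probes.

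At 48 h Dll3 read 6.33, 6.42 and 5.72 with 4-OHT and 4.88, 4.40 and 4.72 with vehicle, B of the vehicle arrays not being above background. The groups lay apart, and Dll3 rose by 1.49 ± 0.34 (2.81-fold, adjusted p = 0.0163). The call was lost without 4-OHT array A or B or vehicle array B or C, with adjusted p-values from 0.0544 to 0.133 and differences from 1.36 to 1.51. It was also lost with the authors' log2 values (0.98, adjusted p = 0.0512) and with no background correction (0.80, adjusted p = 0.074).

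At 96 h the 4-OHT arrays read 7.48, 7.44 and 5.59 for Dll3 and the vehicle arrays 5.25, 6.01 and 4.59. Here the groups overlapped: 4-OHT array C lay below vehicle array B, although each 4-OHT array exceeded the vehicle array of its own letter. Dll3 rose by 1.55 ± 0.34 (2.94-fold, adjusted p = 0.00332), and without 4-OHT array A or B the difference was 1.23 or 1.25, with adjusted p = 0.0578 and 0.0568.

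At 144 h the 4-OHT arrays A and C read 7.35 and 6.22 for Dll3, and the vehicle arrays 4.77 and 4.62. Both 4-OHT arrays lay well above both vehicle arrays, and Dll3 rose by 2.10 ± 0.41 (4.28-fold, n = 2 each, adjusted p = 0.000933). Without 4-OHT array A the difference was 1.53 with an adjusted p of 0.0682.

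Over time Dll3 rose in the 4-OHT arm, by 1.65 ± 0.34 between 18 and 96 h (adjusted p = 0.00187), while in the vehicle arm the same difference was 0.78 ± 0.34 (adjusted p = 0.165) and reached 1.13 without vehicle array C at 96 h (adjusted p = 0.0359). The test of whether the 4-OHT effect on Dll3 differed between times gave an adjusted p of 0.0661. With the letter as a block that test gave 0.000346, and 3 of the 10 probes were called in it (Notch1, Dll1 and Dll3), among 8.15% of all tested probes.

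Dll1, the Delta ligand that activates Notch on neighbouring cells in the developing brain, was above background on all 40 arrays (probe ILMN_2721188). At 6 and 12 h the arms overlapped, with differences of -0.16 ± 0.27 and 0.19 ± 0.27. At 18 h the 4-OHT arrays read 8.02, 7.91 and 8.33 and the vehicle arrays 7.47, 7.42 and 7.36. All 4-OHT arrays were higher, as held for 3.36% of all tested probes, and the difference of 0.67 ± 0.27 was not called (adjusted p = 0.9999).

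At 24 h the Dll1 levels overlapped, at 7.62, 7.78 and 8.51 with 4-OHT and 7.48, 7.82 and 7.71 with vehicle. At 48 h they lay apart again, at 8.03, 8.22 and 8.44 against 7.54, 7.28 and 7.87, with a difference of 0.67 ± 0.27 (adjusted p = 0.529).

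At 96 h the 4-OHT arrays read 8.62, 8.74 and 8.24 for Dll1 and the vehicle arrays 8.14, 7.90 and 6.65. Every 4-OHT array was above every vehicle array, vehicle array C was by far the lowest, and Dll1 rose by 0.97 ± 0.27 (1.96-fold, adjusted p = 0.0295). Without that vehicle array the difference was 0.52 and its adjusted p 0.327. The call was also lost without 4-OHT array A (adjusted p = 0.119) or B (adjusted p = 0.163), under median scaling (1.04, adjusted p = 0.358) and with no filter on dim probes (adjusted p = 0.0541).

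At 144 h the 4-OHT arrays read 8.52 and 8.36 for Dll1 and the vehicle arrays 6.62 and 7.65. The groups lay apart, and Dll1 rose by 1.30 ± 0.33 (2.47-fold, n = 2 each, adjusted p = 0.0118). Vehicle array A was the low one: without it the difference was 0.79 (adjusted p = 0.258), and without 4-OHT array A it was 1.23 (adjusted p = 0.0928). Under median scaling it was 1.12 with an adjusted p of 0.398. Between 18 and 96 h Dll1 differed by 0.45 ± 0.27 in the 4-OHT arm and by 0.15 ± 0.27 in the vehicle arm, neither of them called.

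**Figure D2:**
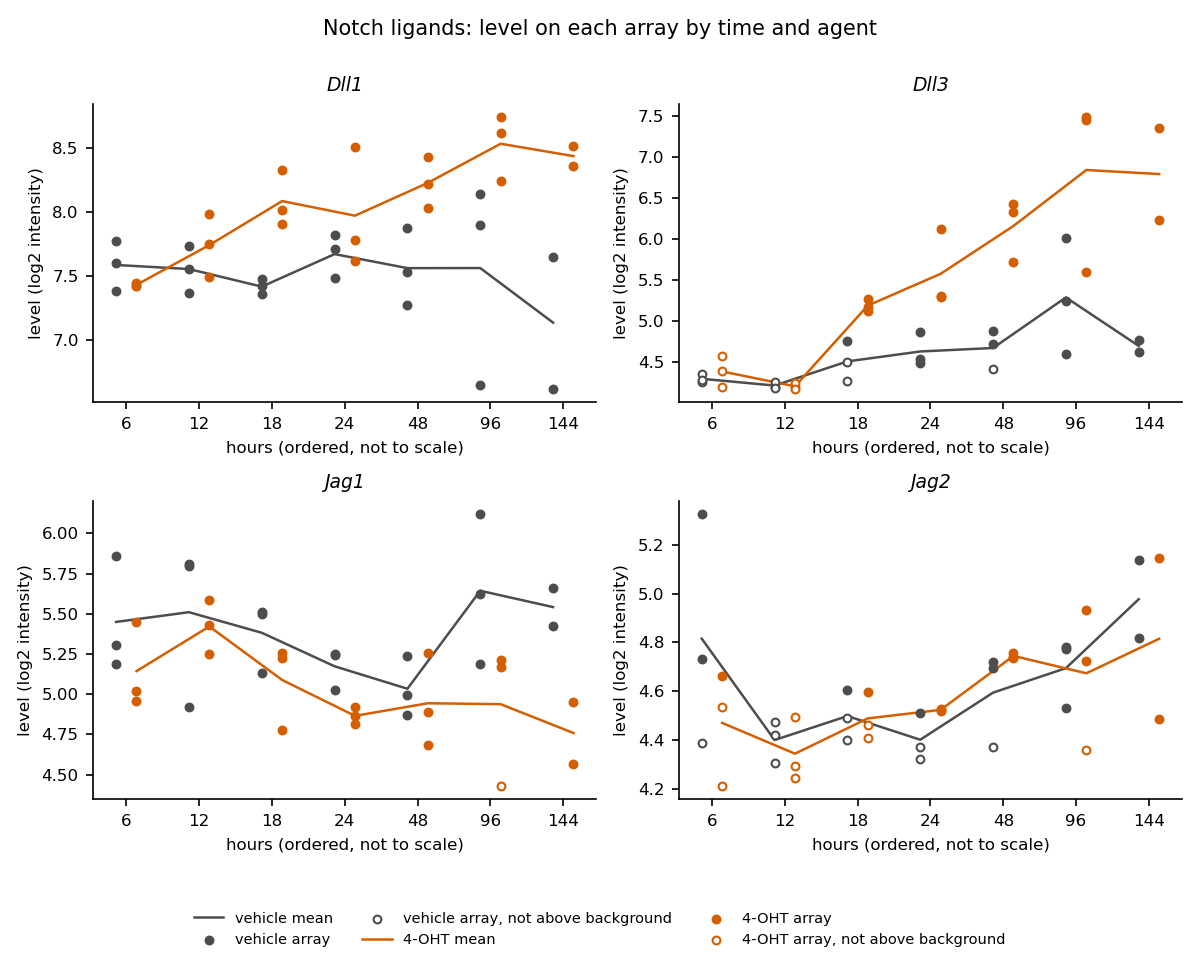
Level of each ligand (log2 intensity) on every array against hours of exposure, which are ordered and not to scale; orange is 4-OHT, grey is vehicle, lines join group means and open circles were not above background. With 4-OHT Dll3 is not above background at 6 and 12 h, lies above it at 18 h and reaches 7.48. Its vehicle arrays stay at or below 6.01. Dll1 is lowest on vehicle array A at 144 h (6.62) and vehicle array C at 96 h (6.65). The arrays at 6 and 12 h form their own series of array numbers.

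The Jagged ligands did not share this course. Jag1, which activates Notch on neighbouring cells, had differences of -0.70 ± 0.24 at 96 h and -0.78 ± 0.30 at 144 h, and neither passed the test (adjusted p = 0.101 and 0.128). At 96 h the 4-OHT arrays of probe ILMN_1257077 read 5.17, 5.21 and 4.43, the last of them not above background, and the vehicle arrays 5.62, 6.12 and 5.19. The groups overlapped only through 4-OHT array B and vehicle array C.

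At 144 h Jag1 read 4.95 and 4.57 with 4-OHT and 5.42 and 5.66 with vehicle, with no overlap, as held for 17.2% of all tested probes in this direction. With the letter as a block Jag1 was called lower at 96 h (adjusted p = 0.00728), among 11.7% of all tested probes. Leaving out single arrays at 96 h moved its difference from -0.45 without 4-OHT array C (adjusted p = 0.461) and -0.47 without vehicle array B (adjusted p = 0.538) to -0.93 without vehicle array C (adjusted p = 0.0273). At 24 h all 4-OHT arrays also lay below all vehicle arrays, with a difference of -0.31 ± 0.24.

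Jag2, the second Jagged ligand, stayed close to background (probe ILMN_2626585): 23 of the 40 arrays were above it. Levels ran from 4.21 to 5.32 over all arrays, and the 7 differences lay between -0.34 and 0.15, none of them called. At 24 and 48 h the 4-OHT arrays lay above the vehicle arrays, by 0.12 ± 0.17 and 0.15 ± 0.17.

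Notch1, the main receptor of embryonic neural stem cells, was above background on all 40 arrays and was not called at any time (probe ILMN_1241915). Its differences were 0.61 ± 0.27 at 6 h and 0.52 ± 0.27 at 12 h. The first was 0.33 without the dim vehicle array C, and the second 0.28 without vehicle array A. At 24 h the 4-OHT arrays read 8.84, 8.70 and 8.84 and the vehicle arrays 9.38, 9.19 and 9.57. All 4-OHT arrays were lower there, as held for 5.78% of all tested probes, with a difference of -0.59 ± 0.27 (adjusted p = 0.9999).

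From 48 h on the arms overlapped for Notch1. At 96 h the difference was 0.00 ± 0.27 with a 95% interval from -0.54 to 0.54, so a change within that range is not excluded. The vehicle array C at 6 h, the dim one, had the lowest Notch1 level of all arrays (7.92). Notch1 did not pass the test of an effect that differs between times (adjusted p = 0.608), but did so with the letter as a block (adjusted p = 0.0117).

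Notch3, a receptor of vessel wall cells that is also made by neural progenitors, was lower on average with 4-OHT at all 7 times (probe ILMN_2697380), with differences from -0.37 to -1.40, but was called at none. At 96 h the 4-OHT arrays read 7.25, 7.09 and 6.65 and the vehicle arrays 8.67, 8.22 and 7.54. All 4-OHT arrays were below all vehicle arrays, as held for 9.29% of all tested probes, and the difference of -1.15 ± 0.43 had an adjusted p of 0.153. With the letter as a block it was called (adjusted p = 0.000783): at 96 h that fit called 5 of the 10 probes, Dll1, Dll3 and the second Hes5 probe higher and Notch3 and Jag1 lower, among 11.7% of all tested probes.

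At 144 h Notch3 read 6.36 and 7.74 with 4-OHT and 7.85 and 9.03 with vehicle. The groups lay apart, 4-OHT array C just under vehicle array A, and the difference of -1.40 ± 0.53 had an adjusted p of 0.124. Single arrays moved it both ways: it was -0.71 without 4-OHT array A (adjusted p = 0.722) and -0.81 without vehicle array C (adjusted p = 0.569), but -1.99 without vehicle array A (adjusted p = 0.0508) and -2.09 without 4-OHT array C (adjusted p = 0.0386). In the F test for a difference at any time Notch3 had an adjusted p of 0.0805, and with the letter as a block 6 of the 10 probes were called in that test (Notch1, Notch3, Dll1, Dll3, Jag1 and the second Hes5 probe), among 17.8% of all tested probes.

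Notch3 was one of 2 genes of the set that rose with time in the vehicle arm. At 18 h the vehicle arrays read 6.02, 6.58 and 7.33 and at 96 h, as above, 8.67, 8.22 and 7.54. Every array at 96 h was higher, by 1.50 ± 0.43 on average (2.83-fold, adjusted p = 0.0326). In the 4-OHT arm the same difference was 0.78 ± 0.43 (adjusted p = 0.258). These changes were not shown to differ, since the test of an effect that differs between times gave an adjusted p of 0.99999 for Notch3.

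The rise of Notch3 in the vehicle arm lost its call without array A or B at either time (differences from 1.19 to 1.47, adjusted p-values from 0.122 to 0.199), under median scaling (1.49, adjusted p = 0.155) and with no filter on dim probes (adjusted p = 0.0594). Of 6 markers of vessel mural cells, Pdgfrb and Rgs5 were above background on 0 of the 40 arrays and Abcc9 on 1. The others were above it on more arrays: Acta2 on 38, Kcnj8 on 22 and Des on 15. The summed intensity of the 6 ran from 120.5 to 325.9 on the vehicle arrays at 18 h and from 130.7 to 1062 at 96 h, and Des, an intermediate filament of muscle cells, was the only 1 of the 3 tested markers called (0.41 higher, adjusted p = 0.0173). In the 4-OHT arm the sum ran from 124.6 to 252.7 at 18 h and from 173.3 to 868.8 at 96 h. There too Des was the only tested mural marker called higher between these times. The part of such cells in the Notch3 result was not tested.

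For Notch2, a receptor of the same family, all levels of the 2 probes lay between 4.13 and 5.23, near the background, and the highest was on the dim array. No difference could be measured for it.

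**Figure D3:**
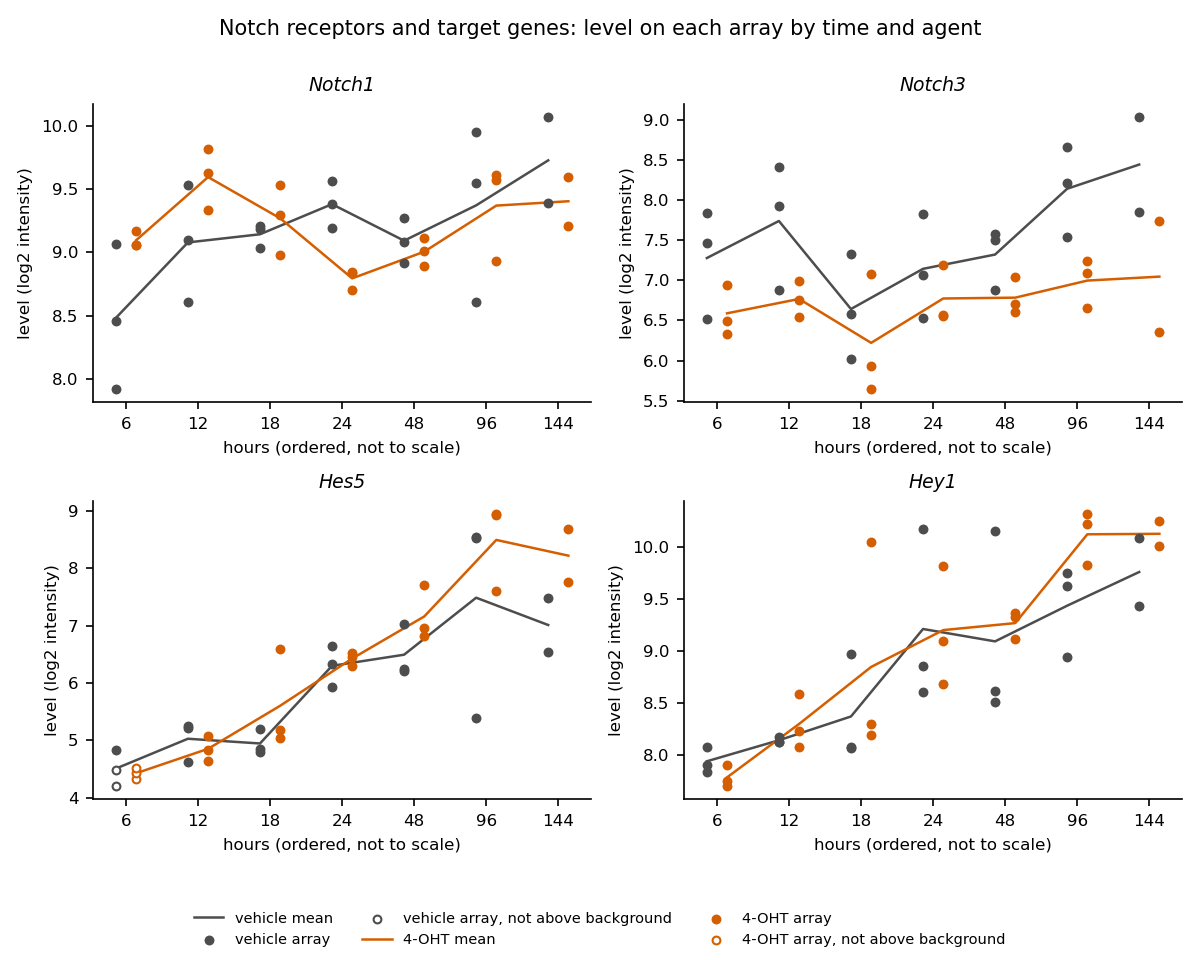
Level of 2 receptors (Notch1 and Notch3) and 2 target genes (Hes5 and Hey1) in log2 intensity on every array against ordered hours; orange is 4-OHT, grey is vehicle, lines join group means and open circles were not above background. Hes5 was at or near background at 6 h and reached 8.95 with 4-OHT and 8.55 with vehicle at 96 h, where vehicle array C stood at 5.38, and Notch3 is lower with 4-OHT on all arrays at 96 h. The arrays at 6 h are of another series of array numbers than those at 96 h.

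Among the target genes the calls without the block lay between times and none between the arms. Hes5, the Notch-dependent repressor of neural stem cells, rose in both arms. In the contrast of 96 h against 18 h, 3 of the 10 probes were called higher in the vehicle arm (Notch3 and both Hes5 probes), against 3.72% of all tested probes higher, 2.36% lower and 6.09% in either direction. In the 4-OHT arm it was 4 (Dll3, both Hes5 probes and Hey1), against 5.76% higher, 4.52% lower and 10.3% in either direction. All arrays at 96 h lay above all at 18 h for Notch3 and both Hes5 probes with vehicle, against 10.2% of all tested probes, and for Dll3 and both Hes5 probes with 4-OHT, against 11%. In the F tests over 18 to 144 h, Notch3 and both Hes5 probes were called in the vehicle arm, where 14% of all tested probes were, and Dll3 and both Hes5 probes in the 4-OHT arm, where 10.1% were.

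At 6 h the Hes5 probe with the higher mean level (ILMN_1253414) was above background on 1 of 6 arrays, vehicle array A. At 18 h its vehicle arrays read 4.84, 5.20 and 4.80, and at 96 h 8.55, 8.54 and 5.38. Vehicle array C at 96 h thus stayed near the 18 h level but still above it, and the rise was 2.55 ± 0.51 (5.84-fold, adjusted p = 0.00309). It lost its call without vehicle array A (2.02, adjusted p = 0.0542) or B (2.02, adjusted p = 0.0512) at 96 h.

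In the 4-OHT arm the same probe read 5.03, 5.18 and 6.59 at 18 h and 8.95, 8.94 and 7.61 at 96 h. All arrays at 96 h were higher than all at 18 h, and Hes5 rose by 2.90 ± 0.51 (7.44-fold, adjusted p = 0.000408). The second probe (ILMN_2624153) gave rises of 2.51 ± 0.49 with vehicle (adjusted p = 0.00259) and 2.85 ± 0.49 with 4-OHT (adjusted p = 0.00032). Over the 40 arrays both Hes5 probes correlated with r = 0.985, which describes a shared target and is no independent support.

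Between the arms, Hes5 was not called at any time without the block, which called both probes higher at 144 h (adjusted p = 0.0484 and 0.0116). At 96 h its difference was 1.01 ± 0.51 on the first probe (adjusted p = 0.396) and 0.91 ± 0.49 on the second (adjusted p = 0.459, and 0.0302 with the letter as a block). Letter C, with its vehicle array at 5.38, had the widest gap at 96 h: 4-OHT exceeded vehicle by 0.40 for letter A, by 0.40 for B and by 2.22 for C. Without vehicle array C alone the difference turned to -0.04 on the first probe (adjusted p = 0.986) and to -0.11 on the second (adjusted p = 0.960). With letter C left out of both arms it was 0.40 on each probe. Its size and sign thus depended on which C arrays were kept. At 144 h the 4-OHT arrays read 7.76 and 8.68 and the vehicle arrays 6.53 and 7.49. Both 4-OHT arrays were higher, and the difference of 1.21 ± 0.62 had an adjusted p of 0.335. It ran from 0.73 without vehicle array A to 1.69 without vehicle array C.

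Hes1, a repressor that Notch induces and that other signals also drive, was called neither between the arms nor over time (probe ILMN_1247691). It was above background on all 40 arrays, with levels from 7.45 to 8.90. The 7 differences lay between -0.12 and 0.24, each with an SE of 0.26 to 0.31, and none was called. At 96 h its 95% interval ran from -0.64 to 0.40. Arrays C from 18 to 96 h were the lowest of their group in both arms, at 7.67 to 8.05.

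Hey1, a repressor related to the Hes proteins, was above background on all 40 arrays and not called between the arms (probe ILMN_2690596). At 18 h its 4-OHT arrays read 8.30, 8.19 and 10.05 and its vehicle arrays 8.07, 8.07 and 8.97, so that array C stood above A and B in both arms. At 96 h they read 10.32, 10.22 and 9.83 with 4-OHT and 9.75, 9.62 and 8.94 with vehicle. There the arms lay apart, as held for 9.78% of all tested probes in this direction, but the difference of 0.69 ± 0.40 was not called (adjusted p = 0.525) and was 0.44 without vehicle array C.

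Between 18 and 96 h Hey1 rose by 1.28 ± 0.40 in the 4-OHT arm (2.42-fold, adjusted p = 0.0376), although 4-OHT array C at 18 h lay above array C at 96 h. The call was lost without array A or B at either time (differences from 0.95 to 1.23, adjusted p-values from 0.132 to 0.238), under median scaling (1.51, adjusted p = 0.142) and with no filter (adjusted p = 0.0711). In the vehicle arm the difference was 1.07 ± 0.40 (adjusted p = 0.105), and without array C at 18 h or at 96 h it was called (1.37 and 1.32, adjusted p = 0.0487 and 0.0483).

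**Figure D4:**
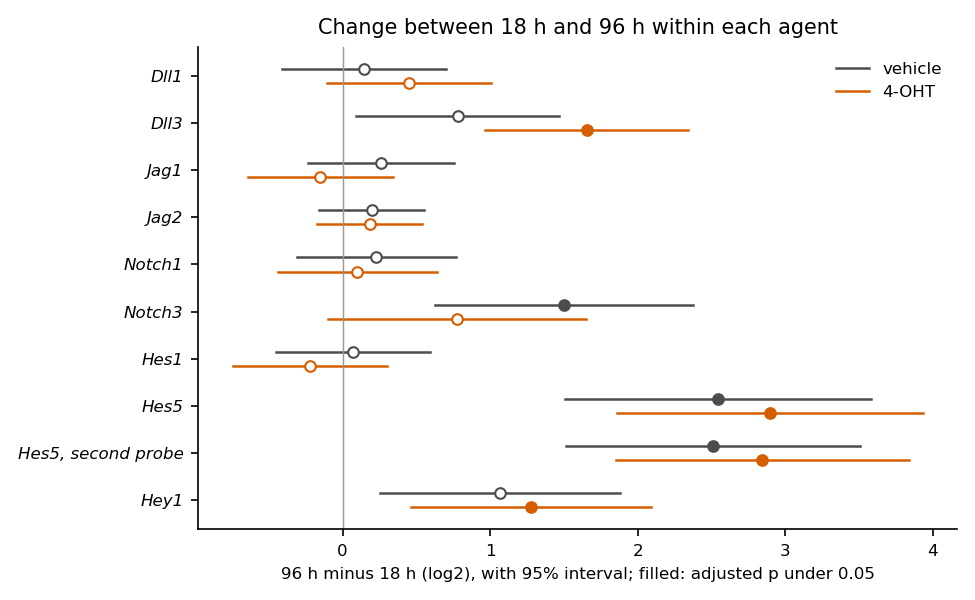
Difference between 96 h and 18 h (log2) for the 10 tested probes within the vehicle arm (grey) and the 4-OHT arm (orange), with 95% intervals; filled circles had an adjusted p under 0.05. Both Hes5 probes lie between 2.51 and 2.90 in both arms, and Dll3 and Hey1 are filled in the 4-OHT arm and Notch3 in the vehicle arm.

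Over the 14 group means, Dll1 and Dll3 followed each other with r = 0.864, and Hes5 and Hey1 with r = 0.971. Jag1 ran against Dll1 (r = -0.762). These are descriptions over 14 means that share arrays and normalization. The genes whose course was most like that of Dll1 by the same measure were Lrrn1 (r = 0.957), Dpp10 (r = 0.952) and Piezo2 (r = 0.949). For Dll3 they were Gal3st1 (r = 0.983), Rem2 (r = 0.982) and Lnx1 (r = 0.980).

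The other genes of the pathway were read from 7 lists of 85 genes in all, of which 73 had a probe and 53 were tested. A gene was counted where any of its probes was called. Up to 48 h limma called 0 of the 53 between the arms, and 2 to 8 had an unadjusted p under 0.05 at each time. Of all tested probes 2.95% to 6.82% passed that unadjusted threshold at these times. At 96 h 2 were higher (Mfng and Tle4) and 1 lower (Hes6), and at 144 h 3 were higher (Cntn1, Mfng and Tle4) and 3 lower (Lfng, Aph1a and Hes6). Over all tested probes the share called in either direction was 4.5% at 96 h and 6.61% at 144 h. Here and for the marker lists the shares are per probe and the counts per gene. A gene with several tested probes thus had more ways to be counted. The median difference over the 53 was 0.07 at 96 h and 0.06 at 144 h, against 0.01 over all tested probes at both.

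Among the fringes, enzymes that add sugars to the Notch receptor and so tune which ligand it answers, 1 rose and 1 fell. Mfng rose by 1.61 ± 0.42 at 96 h (8.64 ± 0.48 with 4-OHT and 7.03 ± 0.47 with vehicle, mean ± SD, n = 3 each, adjusted p = 0.0159). At 144 h it rose by 2.28 ± 0.51 (adjusted p = 0.0036). Its second probe was called at 96 h (0.81, adjusted p = 0.00978) but not at 144 h (0.26, adjusted p = 0.722). The first probe lost its call at 96 h without 4-OHT array A or B or vehicle array C (1.35 to 1.51, adjusted p from 0.0878 to 0.106) and at 144 h without vehicle array A (1.31, adjusted p = 0.181), and the second at 96 h without 4-OHT array A (0.47, adjusted p = 0.214). Lfng fell by 1.64 ± 0.42 at 144 h (5.06 ± 0.9996 against 6.70 ± 0.14, n = 2 each, adjusted p = 0.0125), and at 96 h its difference was -0.94 ± 0.35 (adjusted p = 0.138, and 0.0156 with the letter as a block). The 144 h call was lost without 4-OHT array A or vehicle array C (-1.54 to -0.94, adjusted p from 0.0709 to 0.369) and with no background correction. The other 5 tested members of that list were not called between the arms.

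Among the other Hes and Hey genes and the Groucho corepressors, 7 were tested. Hes6, a Hes relative that in the mouse opposes Hes1, fell by 0.99 ± 0.14 at 96 h (9.29 ± 0.18 against 10.28 ± 0.21, adjusted p = 1.24e-05) and by 0.95 ± 0.17 at 144 h (adjusted p = 0.000338). Calls came from all 3 of its probes at 96 h and from 2 at 144 h. The probe with these values kept both calls without any single array, while the others lost theirs at 96 h in 3 and 4 of the 6 fits without 1 array, and 1 lost its call at 144 h in 2 of the 4. In the vehicle arm Hes6 rose by 0.98 ± 0.14 between 18 and 96 h (adjusted p = 8.12e-05). Tle4, a corepressor that Hes proteins recruit, rose by 0.51 ± 0.11 at 96 h (adjusted p = 0.00371) and by 1.33 ± 0.14 at 144 h (11.76 ± 0.10 against 10.44 ± 0.01, adjusted p = 3.18e-08). All 3 Tle4 probes were called at 144 h, but 2 of them lost the call without 4-OHT array A or vehicle array C (0.73 to 1.07, adjusted p from 0.149 to 0.4). At 96 h Tle4 lost its call without 4-OHT array B (0.42, adjusted p = 0.0559). Under median scaling neither gene was called at either time. With 144 h fitted alone 0 of all tested probes were called, so that fit tells nothing particular about these genes. With array weights Hes6 was not called at 144 h.

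Of the 6 tested further receptors and ligands, Cntn1, an adhesion molecule reported as a Notch ligand in oligodendrocyte precursors, rose by 1.32 ± 0.38 at 144 h (adjusted p = 0.0273), a call lost when any 1 of the 4 arrays was left out (adjusted p from 0.0807 to 0.14) and under median scaling. Of the 8 tested genes for cleavage of the receptor, only Aph1a, a subunit of gamma-secretase, was called, and its probes disagreed: at 144 h 1 fell by 1.01 (adjusted p = 0.00988) and the other differed by 0.07. The call was lost without 4-OHT or vehicle array A (-0.99 to -0.28, adjusted p from 0.0734 to 0.561). None of the 12 tested genes for endocytosis and turnover and none of the 10 for the nuclear complex was called between the arms by limma at 96 or 144 h. At an unadjusted p under 0.05 the first list gave 1 gene at 96 h and 4 at 144 h, and the second 0 at both. Of all tested probes 13.4% at 96 h and 16.7% at 144 h passed that threshold. The letter as a block was read only for pathway probes called without it in some contrast, between the arms or over time. With it Nrarp, a feedback inhibitor that Notch induces, was called higher at 96 h (0.72, adjusted p = 0.0363). In other lists that block also called Cntn1 higher at 96 h (0.65, adjusted p = 0.00217) and Bhlhe40, a repressor of the wider Hes family, higher at 24 h (0.68, adjusted p = 0.0127) and lower at 96 h (-0.88, adjusted p = 0.000154). Numb, which antagonizes Notch, differed by 0.03 at 96 h, and Maml2, a coactivator, by -0.11. All 3 Rbpj probes failed the filter.

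Of the 12 proneural genes, which Hes repressors hold down, 3 were tested (Neurog2, Neurod1 and Neurod4). Their differences ran from 0.13 to 0.19 at 96 h with no limma call. At an unadjusted p under 0.05 it was also 0, against 13.4% of all tested probes. Between 18 and 96 h 6 of the 53 tested pathway genes were called higher with 4-OHT (Cntn1, Mfng, Mib2, Dtx1, Nrarp and Tle4). Poglut2, on the list of fringes and glycosylation, was called lower (-0.77, adjusted p = 0.0377). With vehicle 3 were called higher (Mib2, Hes6 and Bhlhe40) and 0 lower. Over all tested probes 10.3% with 4-OHT and 6.09% with vehicle were called in either direction. Mib2, a ligase that sends ligands into endocytosis, rose in both arms, by 0.98 ± 0.23 in each. Dtx1, a ligase acting on Notch that was picked after its values were seen, rose by 1.24 ± 0.33 and Nrarp by 1.36 ± 0.33 in the 4-OHT arm (adjusted p = 0.0138 and 0.00762). In the vehicle arm Nrarp differed by 1.05 ± 0.33 (adjusted p = 0.0513, and 0.00884 with the letter as a block). Bhlhe40 rose by 1.13 ± 0.27 in the vehicle arm (adjusted p = 0.0105). The rises of Mib2, Dtx1, Nrarp and Bhlhe40 each lost their call without 2 or more single arrays, each an array A or B at 18 or 96 h. Adjusted p-values then ran from 0.0536 to 0.174. Those of Mib2, Nrarp and Bhlhe40 were also lost under median scaling. The fall of Poglut2 was lost under median scaling and without array A or B at either time (adjusted p from 0.108 to 0.232).

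**Figure D5:**
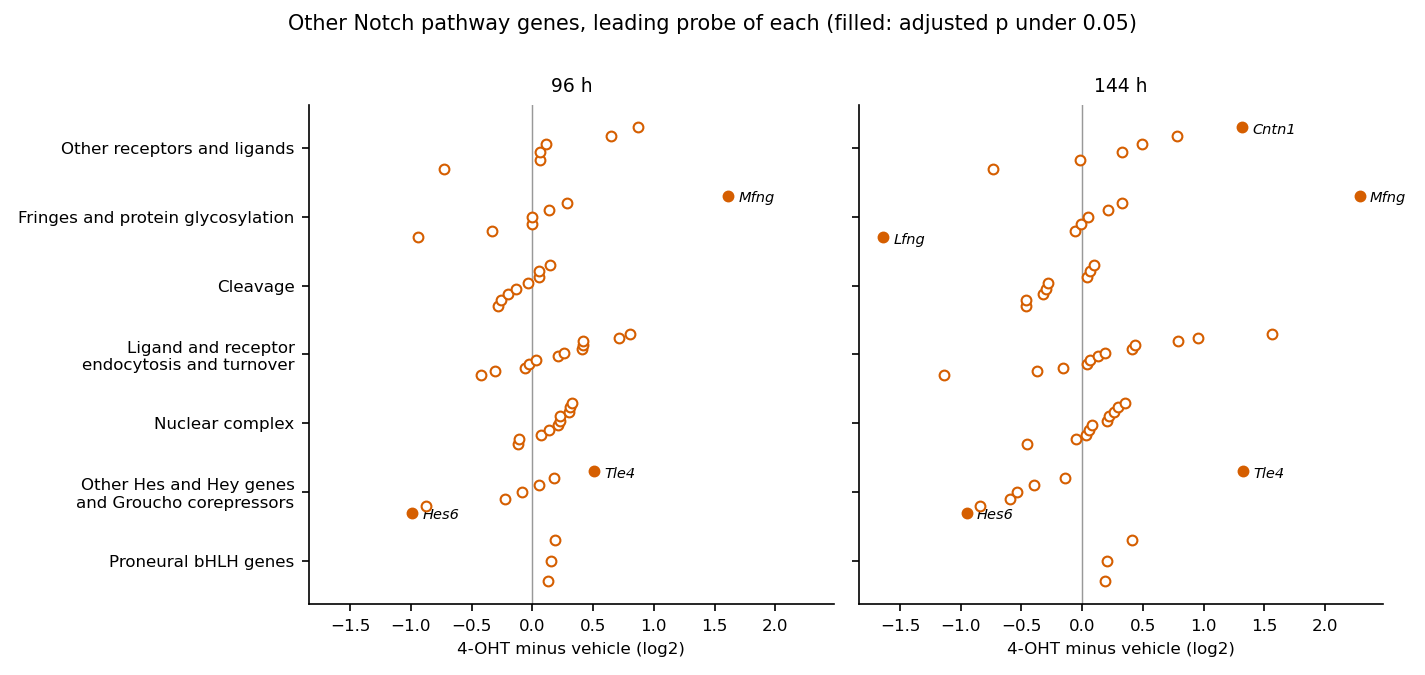
4-OHT minus vehicle (log2) at 96 h and 144 h for the 53 tested pathway genes by list, each shown by its probe with the highest mean level; filled, named circles had an adjusted p under 0.05. Mfng (1.61 and 2.28) and Tle4 (0.51 and 1.33) lie to the right at both times and Hes6 (-0.99 and -0.95) to the left.

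Some markers of oligodendrocyte lineage cells were also called higher with 4-OHT. Without the block, neither Dll1 nor Dll3 was called at 24 h, and of them only Dll3 at 48 h. Of 9 tested markers, 2 were higher with 4-OHT at 24 and 48 h (Gpr17 and Cnp), and 6 at 96 and 144 h (Pdgfra, Sox10, Gpr17, Cnp, Mbp and Mag). The other tested markers were not called at these times. Over all tested probes 0.248%, 0.952%, 4.5% and 6.61% were called in either direction at these 4 times. The summed intensity of the 10 markers on the array ran from 18150 to 26950 with 4-OHT and from 11840 to 14830 with vehicle at 96 h, and from 16180 to 17770 against 13530 to 15110 at 48 h. In the same samples the summed intensity of the 8 stem cell markers was lower at 96 h, from 12700 to 15590 against 21210 to 23620, with Slc1a3 called lower. Of 7 astrocyte markers S100b was higher and Aldoc and Gja1 lower at 96 h, and S100b was higher and Gfap, Slc1a2 and Gja1 lower at 144 h. Of 4 tested neuronal markers Syt1 was lower at 24 h, Map2 was higher at 96 h and Dcx, Map2 and Syt1 were higher at 144 h. The part of such cells in the results for Dll1, Dll3, Mfng, Lfng, Hes6, Tle4 and Cntn1 was not tested. Of the 6 endothelial markers Cldn5 was above background on 0 arrays, Cdh5 on 1, Pecam1 on 3, Kdr on 5, Tek on 23 and Esam on 27. Of the 2 tested, 0 were called at any time, by limma or at an unadjusted p under 0.05. Over the 7 times 2.95% to 16.7% of all tested probes passed that unadjusted threshold. Of the 6 microglial markers Itgam was above background on 0 arrays, Cx3cr1 on 2, Ptprc on 4, Tmem119 on 6, Aif1 on 7 and Csf1r on 9, and none passed the filter.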

How the data were processed

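Total RNA from mouse neural stem cells was measured on 40 Illumina MouseWG-6 arrays. The deposited table gives a linear bead intensity and a detection p-value per probe and array, made by the authors in GenomeStudio per the submitters' processing notes. A second deposited table holds log2 values, made by the authors with lumi and quantile normalization per the series' design text, and it served as an alternative. Versions are not given in the sources used here. Of 45281 probes, 21 with fields out of step with the header were left out. Of the 45260 used, 34872 carried 1 gene symbol, 18 several and 10370 none, and 34794 matched the RefSeq table of GRCm38.p6. Probes with several symbols were named for no gene.

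Intensities were normalized with neqc of limma 3.58.1 under R 4.3.3 (background from detection p-values, offset 16, quantile normalization, log2). The filter kept 21740 probes, those detected at a p-value under 0.01 on 3 or more arrays. limma was fitted with 1 mean for each of the 14 groups and a variance trend (26 residual degrees of freedom), giving two-sided tests with Benjamini-Hochberg adjustment over all tested probes. Changes are thus relative to the bulk of probes. The procedure was tested on simulated data with known changes. A fold is 2 to the power of the difference and, after the offset, understates the change of dim probes.

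The named genes were all members, every pathway gene called between 4-OHT and vehicle, and up to 4 others per list with the highest mean level. The genes most alike were the 3 with the highest Pearson correlation over the group means. The members, gene lists and tests were chosen with earlier results of these data known, so the calls are no independent support for them. The lists for the pathway and for cell type markers were read as counts, with no test of a list.

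Replicate letters were checked as pairs by correlating residuals of 4-OHT and vehicle arrays of 1 letter over probes. At 18, 24, 48 and 96 h the correlations ran from 0.367 to 0.783, and the letter was used as a block in an alternative fit. The vehicle array most like 4-OHT array B was A at 18 and 24 h. At 48 h 4-OHT arrays A and B each matched the other letter best. At 96 h each letter matched its own, as C also did at 18, 24 and 48 h. Pairing of A and B by letter is thus not shown before 96 h. At 6 and 12 h they ran from -0.143 to 0.421, and at 144 h the value was 0.671 for 2 pairs. Letter C at 18 to 144 h also has its own series of array numbers, which the labels do not explain, so pairing by letter and array series cannot be told apart there. All arrays at 6 and 12 h form a further series. These times were therefore left out of the tests over time within an arm. Alternatives covered scaling, background correction, filter, block, array series, weights, variance prior and leaving out each array. The number of arrays, and not read depth, limits precision. No array column was left unmapped, and no 2 arrays held identical values.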

Additional observations from a re-analysis of the deposited data

Results flagged for a closer look

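Groups of 2 or 3 arrays were too small for a check of single arrays that stand apart. For the 10 probes of the Notch set, 0 effects differed between times by the F test. Among the named pathway genes, the effect of 4-OHT on Tle4 differed between times (adjusted p = 1.14e-05, limma F test): its differences lay between -0.20 and 0.16 from 6 to 48 h and were 0.51 at 96 h and 1.33 at 144 h. The effect on Hes6 also differed between times (adjusted p = 0.000951), with 0.25 at 6 h, -0.02 at 12 h, values from -0.40 to -0.27 at 18 to 48 h, and -0.99 and -0.95 at 96 and 144 h. Both calls held without each of the 40 arrays in turn and were lost under median scaling.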

How the results depend on the processing

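Of the counts of called probes in the set, 0 moved by more than 1.5 times with the stricter filter, without the variance trend or with array series and letter as a random effect. Under median scaling, which shifted the median of all tested probes by up to 0.34 (6 h) and by -0.11 (144 h) and 0.12 (96 h against 18 h with 4-OHT), 1 probe in place of 2 was called at 96 h, at 144 h and in the any-time test, and 1 in place of 0 in the test of effect by time. With the authors' log2 values or no background correction 0 were called at 48 h, and with no filter 1 at 96 h. Each time fitted alone gave 0 at 96 h and 144 h, where fewer arrays estimate the spread. Over all tested probes those fits called 502 at 96 h and 0 at 144 h.

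The replicate block gave 1 call at 24 h, 5 at 96 h, 6 at 144 h, 6 in the any-time test and 3 in the test of effect by time, and changed no call at 6, 12, 18 and 48 h or over time within an arm. At 144 h it added Notch3 (adjusted p = 0.00062), Jag1 (0.0116) and both Hes5 probes (0.0484 and 0.0116). For the pathway genes the block was read only on probes called without it in some contrast. Among these it added Nrarp (0.0159) and Bhlhe40 (0.00158) at 144 h. With array series as a term, 1 was called in the test of effect by time and 5 in the 4-OHT arm over time. The first array series alone, with 2 arrays a group, gave 2 at 24 h, 3 at 48 h and 5 at 96 h. Over all tested probes it called 1172, 1814 and 4429 at these times, against 54, 207 and 979 in the main fit. The fit with array weights stopped before it converged. It gave 2, 2, 3, 2, 5 and 0 calls at 12, 18, 24, 48, 96 and 144 h. For 96 h against 18 h it gave 8 with vehicle and 9 with 4-OHT. It gave 7 in the any-time test, 4 in the test of effect by time, and 9 in each arm over time. Over all tested probes the weighted fit called 1302, 844, 2895, 2923, 7504 and 360 at those times. For 96 h against 18 h it called 10480 of them with vehicle and 13593 with 4-OHT, against 1323 and 2235 in the main fit. Under these weights Jag1 (0.35, adjusted p = 0.0181) and a Hes6 probe (ILMN_1214126, -0.25, adjusted p = 0.0493) reversed for 96 h against 18 h with 4-OHT. The cause of these changes was not tested.

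Leaving out 1 array gave 0 calls at 6, 12, 18 and 24 h, 0 to 1 at 48 h, 0 to 2 at 96 h, 0 to 3 at 144 h, 1 to 5 and 3 to 4 for 96 h against 18 h with vehicle and 4-OHT, 2 to 3 in the any-time test, 0 to 1 in the test of effect by time, and 2 to 4 and 3 to 4 over time with vehicle and 4-OHT. Called probes over all 21740 moved from 979 to 453 at 96 h and from 1438 to 763 at 144 h under median scaling, and to 2540 and 3550 with the block. Alternatives for the pathway genes were added after seeing the data and covered only probes that had been called in some contrast.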
